A study of Mus musculus with 27 samples.

Results

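Genes of DNA replication and cell division were followed in CD11b+ cells, the surface marker gate that takes microglia and other myeloid cells, sorted from 2 brain regions of C57BJ6 mice, the hippocampus (HC) and the prefrontal cortex (PFC). The list held 41 genes chosen by symbol as a measure of proliferating cells, and all 41 were matched to the Ensembl identifiers of both deposited count tables. All 41 also passed the filter of at least 10 counts in at least 2 libraries, among 14596 of 53412 gene rows in the minocycline table and 16804 of 55421 in the enrichment table. The list was split into 22 mitosis genes, 17 replication genes and 2 further genes, Stmn1 and Hmgb2.

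The minocycline experiment held 15 libraries. Its groups were mice given the stress protocol CUMS (chronic unpredictable mild stress) together with the antibiotic minocycline (CUMS_M, 3 HC and 3 PFC libraries), mice given CUMS alone (3 HC and 2 PFC libraries) and a naive control group (NAIVE, 2 HC and 2 PFC libraries). The enrichment experiment held 12 libraries, of mice given CUMS and environmental enrichment (EE, 3 per region) and of mice given CUMS and vehicle (VEH, 3 per region), so both of its arms had been stressed. The labels give no age or sex, and they do not say that the libraries of a group came from separate animals, so a p-value here measures the spread between libraries, which may be technical. Each library of the minocycline experiment held 7.87e6 to 15.3e6 counts, and each of the enrichment experiment 19.5e6 to 23.9e6.

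As background, a cell that commits to division first switches on genes for DNA synthesis. Origins are licensed by loading the Mcm2 to Mcm7 helicase, which Cdc45 and the GINS complex then activate, while Pcna clamps the polymerase to DNA and Rrm1, Rrm2, Tyms and Tk1 supply nucleotides. Mitosis genes follow later in the cycle, and their RNA is mostly restricted to cells between S phase and division, whereas Pcna and several Mcm genes are also transcribed in cells that are not dividing. Microglia renew slowly in the adult brain by local division, which depends on the receptor Csf1r.

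Both classes are known for promoters read by cell cycle complexes. The DREAM complex binds the cell cycle homology region (CHR), often beside CCAAT boxes bound by NF-Y, and E2F factors bind sites in many replication genes. RefSeq promoter windows of build GRCm38.p6, from 250 bases before to 50 after the start, were found for 33 of the 41 genes, in 36 windows. Kif20a, Stmn1, Mcm4, Gins2, Tpx2, Aurkb, Ccna2 and Ccne2 had no entry. The search covered both strands for TTTGAA and TTTAAA (CHR), CCAAT, and TTTCCCGC, TTTGGCGC, TTTCGCGC and TTTGCCGC (E2F). A CHR word stood in 17 of 19 windows of mitosis genes (89.5%), against 27.6% of all 32851 windows in the table. A CCAAT word also stood in 17 of these 19 windows, against 37.4% of all windows. Prc1 has 2 overlapping windows, so the 19 windows belong to 18 genes. Of these 18 genes, 16 had a CHR word and 16 a CCAAT word. An E2F word stood in 6 of 16 windows of replication genes (37.5%), against 2.27% of all windows. Those 6 belonged to Cdc6, Mcm3, Mcm5, Mcm6, Mcm7 and Uhrf1, and the only mitosis gene with an E2F word was Cdk1. A match describes letters and is not evidence of binding in these cells.

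The 4 windows printed here run from 180 bases before to 30 after the start on the gene's strand. They belong to the cyclin and the proliferation marker that stand for the mitosis genes and to 2 helicase genes described below. Capitals mark the words above on either strand, so that ATTGG is CCAAT read from the other strand, and overlapping matches merge into 1 run.
Ccnb2 (chr9:70421525-70421734, minus strand): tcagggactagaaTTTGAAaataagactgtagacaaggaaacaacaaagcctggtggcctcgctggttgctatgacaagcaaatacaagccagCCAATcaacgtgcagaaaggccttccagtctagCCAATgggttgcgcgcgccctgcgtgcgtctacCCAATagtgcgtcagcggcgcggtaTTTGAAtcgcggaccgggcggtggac
Mki67 (chr7:135716350-135716559, minus strand): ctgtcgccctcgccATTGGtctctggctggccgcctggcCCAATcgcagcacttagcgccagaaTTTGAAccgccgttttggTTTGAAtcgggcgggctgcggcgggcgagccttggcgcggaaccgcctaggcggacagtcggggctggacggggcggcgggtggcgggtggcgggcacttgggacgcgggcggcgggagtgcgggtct
Mcm2 (chr6:88898751-88898960, minus strand): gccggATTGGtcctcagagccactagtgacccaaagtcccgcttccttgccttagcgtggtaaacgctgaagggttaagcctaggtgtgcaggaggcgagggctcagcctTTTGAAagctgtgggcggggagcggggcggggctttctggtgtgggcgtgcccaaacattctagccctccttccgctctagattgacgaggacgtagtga
Mcm6 (chr1:128359676-128359885, minus strand): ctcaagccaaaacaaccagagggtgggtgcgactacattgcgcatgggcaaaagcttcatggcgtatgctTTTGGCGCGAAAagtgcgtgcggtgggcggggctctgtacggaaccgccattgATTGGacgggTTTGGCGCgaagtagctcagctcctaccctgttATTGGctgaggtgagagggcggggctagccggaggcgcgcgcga
Ccnb2, whose product activates Cdk1 at entry into mitosis, has a CHR word at either end of the printed window and 3 CCAAT words between them. Mcm6 has no CHR word and 3 E2F words, of which 2 overlap in TTTGGCGCGAAA. Mcm2 has a CHR word and no E2F word in its window.

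Pcna, the Mcm genes, Rrm1, Hmgb2 and Stmn1 were the abundant part of the list. Levels are given as counts per 1e6 counts (CPM, scaled by trimmed mean of M values) divided by exon length in kb where genes are compared with each other. Pcna averaged 19.7 CPM per kb in the minocycline experiment and 23.0 CPM per kb in the enrichment experiment, which placed it at percentile 84.6 and 88.3 of the genes tested. Mcm3 averaged 19.1 and 17.7 CPM per kb in the same order of experiments. The other helicase genes were lower, between 2.00 CPM per kb (Mcm2) and 4.56 CPM per kb (Mcm4) in the minocycline experiment. Mitosis genes sat in the lower part of the expression range, from Bub1, a spindle checkpoint kinase, at 0.0959 CPM per kb to Cdc20, the activator of the anaphase-promoting complex, at 1.64 CPM per kb in the minocycline experiment. The replication genes Cdc6, Ccne1, Ccne2, Cdc45, Tk1, Gins2, Rrm2, Uhrf1 and Tyms lay within it, so the classes overlap in level. The mitosis range spans percentiles 3.14 to 34.9 of the genes tested, and 7.95 to 36.3 in the enrichment experiment. Mki67, the gene of the proliferation marker Ki-67, averaged 1.11 and 1.25 CPM per kb. The mitosis genes also had the higher median biological coefficient of variation between libraries of a group, 0.403 in the minocycline experiment, against 0.223 for the replication genes. In the enrichment experiment the same medians were 0.344 and 0.212. In the minocycline experiment the classes overlapped, with 0.271 to 0.880 for mitosis genes and 0.100 (Mcm3) to 0.615 (Ccne1) for replication genes. The replication genes of low level were the more variable ones of their class.

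**Figure D1:**
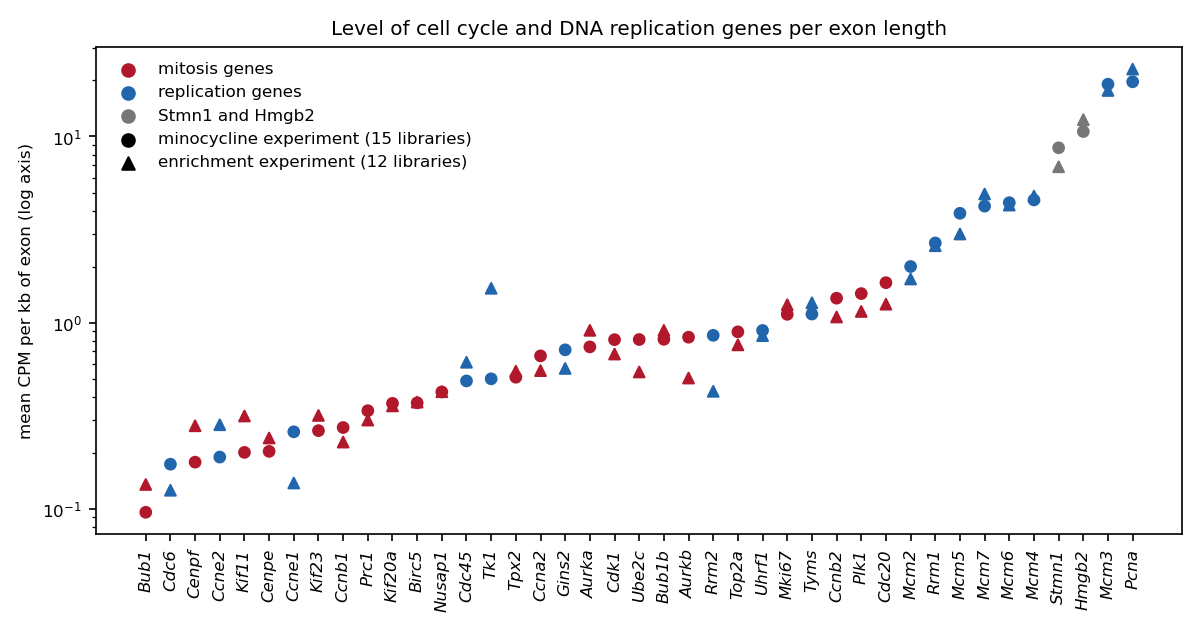
Mean level of each of the 41 genes per kb of exon (log axis, CPM per kb) in the minocycline experiment (circles) and the enrichment experiment (triangles), coloured by class and sorted by the minocycline level. Mcm3 and Pcna stand at the top near 19.1 and 19.7 CPM per kb, and Bub1 at the bottom at 0.0959 CPM per kb.

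The cells carried the marker profile of microglia in every library, with Cx3cr1 between 6830 and 9974 CPM and Tmem119 between 2487 and 5240 CPM, and the 10 lymphocyte genes summed to at most 21.1 CPM. Several libraries stood apart. The 5 choroid plexus genes examined (Ttr, Folr1, Kl, Kcnj13 and Clic6) summed to 557 to 1911 CPM in all 8 HC libraries of the minocycline experiment and to 1.19 to 2.61 CPM in 6 of its 7 PFC libraries, but to 603.4 CPM in PFC CUMS_M 3. In the enrichment experiment the HC libraries VEH 1 and VEH 2 had sums of 0.619 and 1.47 CPM, and the PFC libraries EE 2, EE 3, VEH 2 and VEH 3 had sums of 1111, 231.7, 716.2 and 732.1 CPM. These 7 libraries therefore went against the pattern of their region labels. The labels were kept, and results are given with and without these libraries where the difference matters. PFC NAIVE 1 listed fewer genes than the others, 13943 with a count, and had 0 counts for 6 of the 41 genes (Ccnb2, Bub1, Birc5, Ube2c, Ccne1 and Cdc45), and it is 1 of only 2 PFC NAIVE libraries.

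Sorted myeloid cells can hold granulocyte precursors, which divide, so 10 neutrophil precursor genes (Mpo, Elane, Prtn3, Ctsg, Camp, Ltf, Ngp, Chil3, Cebpe and Fcnb) were summed as well. Their sum ran from 55.7 to 1898 CPM in the minocycline experiment and from 55.7 to 1316 CPM in the enrichment experiment. Mpo and Elane, the defining primary granule genes, were both at 0 in PFC NAIVE 1. The precursor sum of that library, 1392 CPM, therefore came from the other genes of the list. The sum is read below as the level of these 10 genes, and whether it stood for dividing precursors was not tested. The library with the highest mitosis sum of its group was also the highest for precursor genes in 5 of 10 groups, and the library with the lowest mitosis sum was the lowest in 5 of 10. For the replication genes the highest mitosis library was the highest in 3 of 10 groups. The sums of neutrophil genes and of 8 monocyte genes each shared their highest library with the mitosis genes in 5 of 10 groups as well, the microglia genes in 2 and the erythroid genes in 1. Groups held only 2 or 3 libraries, so many such matches arise by order alone, and a link was not tested. In a group of 2, a shared highest library also means a shared lowest library, so those counts are not separate. In bulk RNA, fewer cells of a type and less RNA per cell cannot be told apart.

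**Figure D2:**
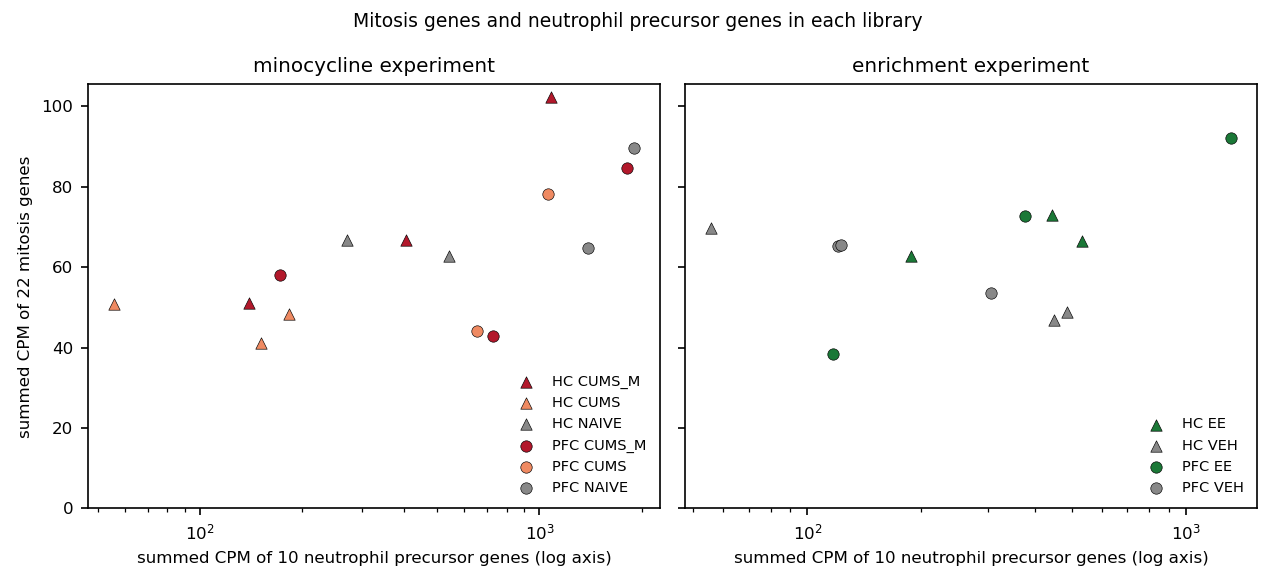
Summed CPM of the 22 mitosis genes (linear axis) against summed CPM of 10 neutrophil precursor genes (log axis), 1 point per library, in the minocycline experiment (left) and the enrichment experiment (right); circles are PFC and triangles HC libraries, coloured by treatment. HC CUMS_M 3 (102.4 CPM) and PFC EE 1 (92.2 CPM) have the highest mitosis sums of the left and the right panel.

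In the hippocampus, the list was low in stressed mice without minocycline. The 41 genes summed to 383.6, 394.0 and 423.9 CPM in HC CUMS_M, to 329.5, 323.0 and 333.9 CPM in HC CUMS, and to 367.5 and 375.6 CPM in HC NAIVE. All 3 HC CUMS libraries thus lay below the other 5 HC libraries of the experiment. The 22 mitosis genes summed to 51.2, 66.7 and 102.4 CPM in HC CUMS_M, to 48.3, 50.8 and 41.1 CPM in HC CUMS, and to 66.8 and 62.7 CPM in HC NAIVE. The lowest CUMS_M library was just above the highest CUMS library, and without the trimmed-mean scaling these sums overlapped (50.3 CPM lowest in CUMS_M, 51.9 CPM highest in CUMS). The 17 replication genes summed to 288.8, 284.8 and 271.2 CPM in HC CUMS_M, to 233.1, 230.5 and 255.4 CPM in HC CUMS, and to 259.0 and 263.9 CPM in HC NAIVE. The 3 HC groups kept apart in this sum, with CUMS_M on top and CUMS at the bottom. Without the trimmed-mean scaling the order of the groups in the sum of all 41 genes was the same. No test was made on these sums, because the list was chosen with results of these data known.

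**Figure D3:**
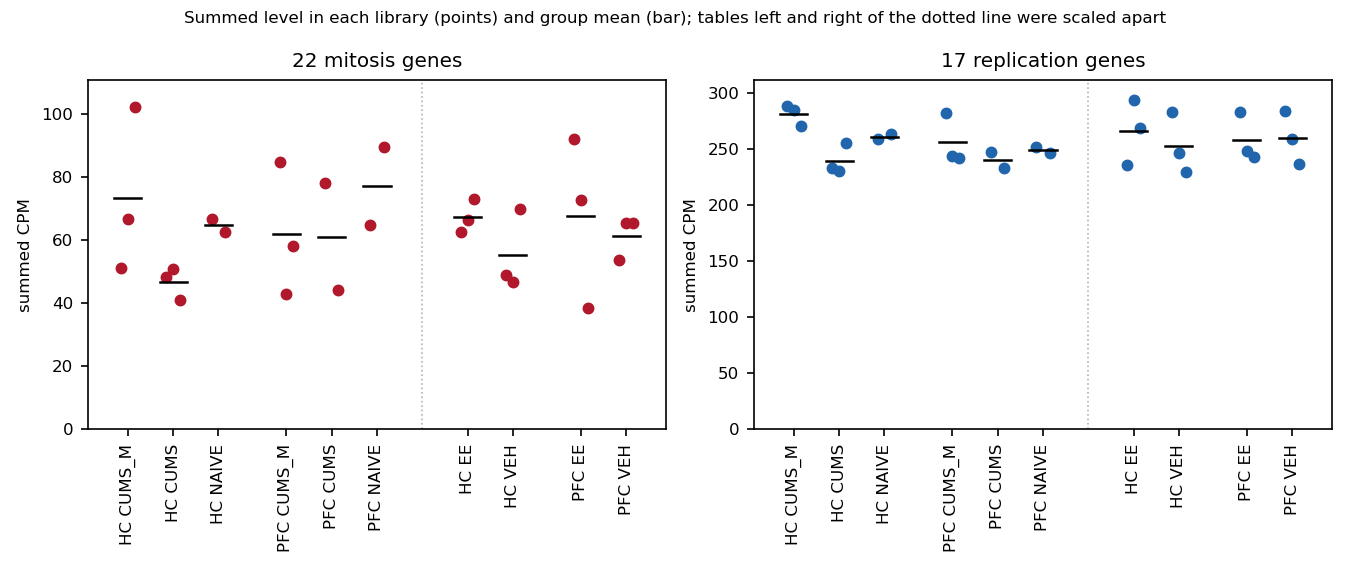
Summed CPM of the 22 mitosis genes (left) and the 17 replication genes (right) in each library (points) with the group mean (bar); the minocycline and enrichment tables, left and right of the dotted line, were scaled separately. The HC CUMS libraries lie at 41.1 to 50.8 CPM for mitosis genes and 230.5 to 255.4 CPM for replication genes.

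Between HC CUMS_M and HC CUMS, 37 of the 41 genes had a log2 fold change above 0 and 4 below, with a median of 0.44, against 0.0071 over all genes tested. All 22 mitosis genes were above 0 (median 0.53), as were 14 of 17 replication genes (median 0.24). None of the 41 passed an adjusted p of 0.05 in edgeR's quasi-likelihood test with Benjamini-Hochberg adjustment over all genes, a test that called 0.00685% of all genes in this comparison. At an unadjusted p under 0.05 there were 4 genes (Mcm6, Mki67, Mcm3 and Mcm5), all higher in CUMS_M, against 3.97% of all genes, and DESeq2 called 0 of the 41. Groups did not overlap for 9 genes, all higher in CUMS_M, a share of 21.95% against 6.04% of all genes (4.26% were lower without overlap); they were Mki67, Kif20a and Ccnb2 of the mitosis genes and Mcm3, Mcm5, Mcm6, Rrm2, Ccne2 and Cdc45 of the replication genes.

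The helicase genes Mcm6, Mcm3 and Mcm5 were 3 of the 4 genes at an unadjusted p under 0.05. Mcm6 had 22.5, 28.2 and 24.0 CPM in HC CUMS_M, against 18.4, 17.3 and 19.3 CPM in HC CUMS, a log2 fold change of 0.44 ± 0.16 (SE; adjusted p = 1). Its HC NAIVE libraries had 19.8 and 18.1 CPM, inside or near the CUMS range, so only the CUMS_M group stood apart. Mcm3 had 90.3, 75.5 and 76.5 CPM in HC CUMS_M, against 68.8, 61.6 and 74.7 CPM in HC CUMS, a log2 fold change of 0.24 ± 0.11. Mcm5 had 18.1, 18.1 and 19.6 CPM in HC CUMS_M, 14.6, 14.5 and 14.96 CPM in HC CUMS, and 18.1 CPM in each HC NAIVE library. For Mcm5, then, the stressed mice without minocycline formed the separate low group. Rrm2, the regulated subunit of ribonucleotide reductase, had 1.66, 1.76 and 4.54 CPM in HC CUMS_M, 1.11, 0.607 and 1.39 CPM in HC CUMS, and 2.20 and 1.37 CPM in HC NAIVE. Pcna did not follow, with 45.7, 45.0 and 40.5 CPM in HC CUMS_M, 39.3, 45.7 and 51.4 CPM in HC CUMS, and 45.0 and 46.7 CPM in HC NAIVE.

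Among mitosis genes, Mki67 had 10.4, 14.6 and 20.9 CPM in HC CUMS_M, 8.14, 7.01 and 6.05 CPM in HC CUMS, and 10.5 and 8.504 CPM in HC NAIVE. Its log2 fold change of CUMS_M over CUMS was 1.12 ± 0.46 (unadjusted p = 0.0327, adjusted p = 1), and the CUMS libraries were the 3 lowest of the 8. Top2a, the topoisomerase that untangles sister chromosomes, had 5.79, 6.83 and 13.1 CPM in HC CUMS_M, 5.47, 8.83 and 4.45 CPM in HC CUMS, and 8.10 and 7.39 CPM in HC NAIVE, so its groups overlapped. Ccna2, the cyclin of S phase and early mitosis, had 1.13, 2.30 and 5.05 CPM in HC CUMS_M, 1.48, 1.42 and 1.46 CPM in HC CUMS, and 2.28 and 1.55 CPM in HC NAIVE. HC CUMS_M 3 was the highest HC library of the experiment for Mki67, Top2a and Ccna2. That library also had the highest neutrophil precursor sum of the HC libraries, 1079 CPM, beside 138.9 and 404.8 CPM in the other CUMS_M libraries and 182.5, 55.7 and 151.0 CPM in HC CUMS. With the log sum of the precursor genes as a covariate, added after the data were seen, the median of the 41 genes was 0.20 and 27 were above 0. Without HC CUMS_M 3 the median was 0.28 and that of the mitosis genes 0.27, and without HC CUMS_M 1 they were 0.56 and 0.77. Of the 14 marker lists, the erythroid genes were lower in CUMS_M without overlap (27.6 to 67.4 CPM in HC CUMS_M, 80.7 to 212.9 CPM in HC CUMS) and the neural progenitor and neuroblast genes higher (19.97 to 22.4 CPM in HC CUMS_M, 14.5 to 17.9 CPM in HC CUMS), and the part of these cells in the member values was not tested.

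Between HC CUMS and HC NAIVE the signs ran the other way, but the same HC CUMS libraries enter both comparisons, so the pair is not independent. Of the 41 genes 5 were above 0 and 36 below, with a median log2 fold change of -0.30, against -0.0067 over all genes. Mitosis genes had a median of -0.49 with 20 of 22 below 0, and replication genes one of -0.17. No gene of the genome-wide test was called (0% of 14596), and at an unadjusted p under 0.05 there were 0 of the 41 against 2.91% of all genes; DESeq2 also called 0 of the 41. Groups did not overlap for 15 of the 41 (36.6%), all lower in CUMS, against 10.2% of all genes, and 11 of those 15 were mitosis genes. The genes of smallest p were Birc5, survivin of the chromosomal passenger complex, Cenpf, a kinetochore protein, and Ccnb1, a mitotic cyclin. Birc5 had 1.04, 0.270 and 0.696 CPM in HC CUMS, against 2.44 and 1.72 CPM in HC NAIVE (log2 fold change -1.63 ± 0.82, adjusted p = 0.9998). Cenpf had 2.37, 1.01 and 2.30 CPM in HC CUMS, against 3.38 and 3.52 CPM in HC NAIVE (-0.87 ± 0.51). Ccnb1 had 0.592, 0.877 and 0.209 CPM in HC CUMS, against 1.18 and 1.63 CPM in HC NAIVE. In all of these the CUMS libraries lay below both NAIVE libraries at levels under 4 CPM, where single libraries rest on few reads. Cdk1, the kinase that drives mitosis, had 4.13, 4.83 and 3.81 CPM in HC CUMS_M, 2.96, 3.17 and 4.11 CPM in HC CUMS, and 5.27 and 5.24 CPM in HC NAIVE, which left NAIVE on top. The precursor sums were 270.6 and 540.8 CPM in HC NAIVE, above every HC CUMS library, and with their covariate the median of the list was -0.13 with 15 genes above 0. The neutrophil genes were lower in CUMS without overlap too. The neural progenitor and neuroblast genes were also lower, at 14.5 to 17.9 CPM in HC CUMS, against 18.2 to 19.2 CPM in HC NAIVE. Their groups overlapped without the trimmed-mean scaling. Sums of other markers were higher in CUMS without overlap: astrocyte genes at 414.8 to 472.7 CPM in HC CUMS, against 270.7 to 328.4 CPM in HC NAIVE, oligodendrocyte genes at 598.9 to 752.5 CPM in HC CUMS, against 447.3 to 448.4 CPM in HC NAIVE, and oligodendrocyte precursor genes at 37.2 to 49.8 CPM in HC CUMS, against 23.2 to 25.001 CPM in HC NAIVE. The neuron genes were higher in CUMS without overlap at under 8 CPM in every HC library of this experiment, and the part of these cells in the member values was not tested.

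**Figure D4:**
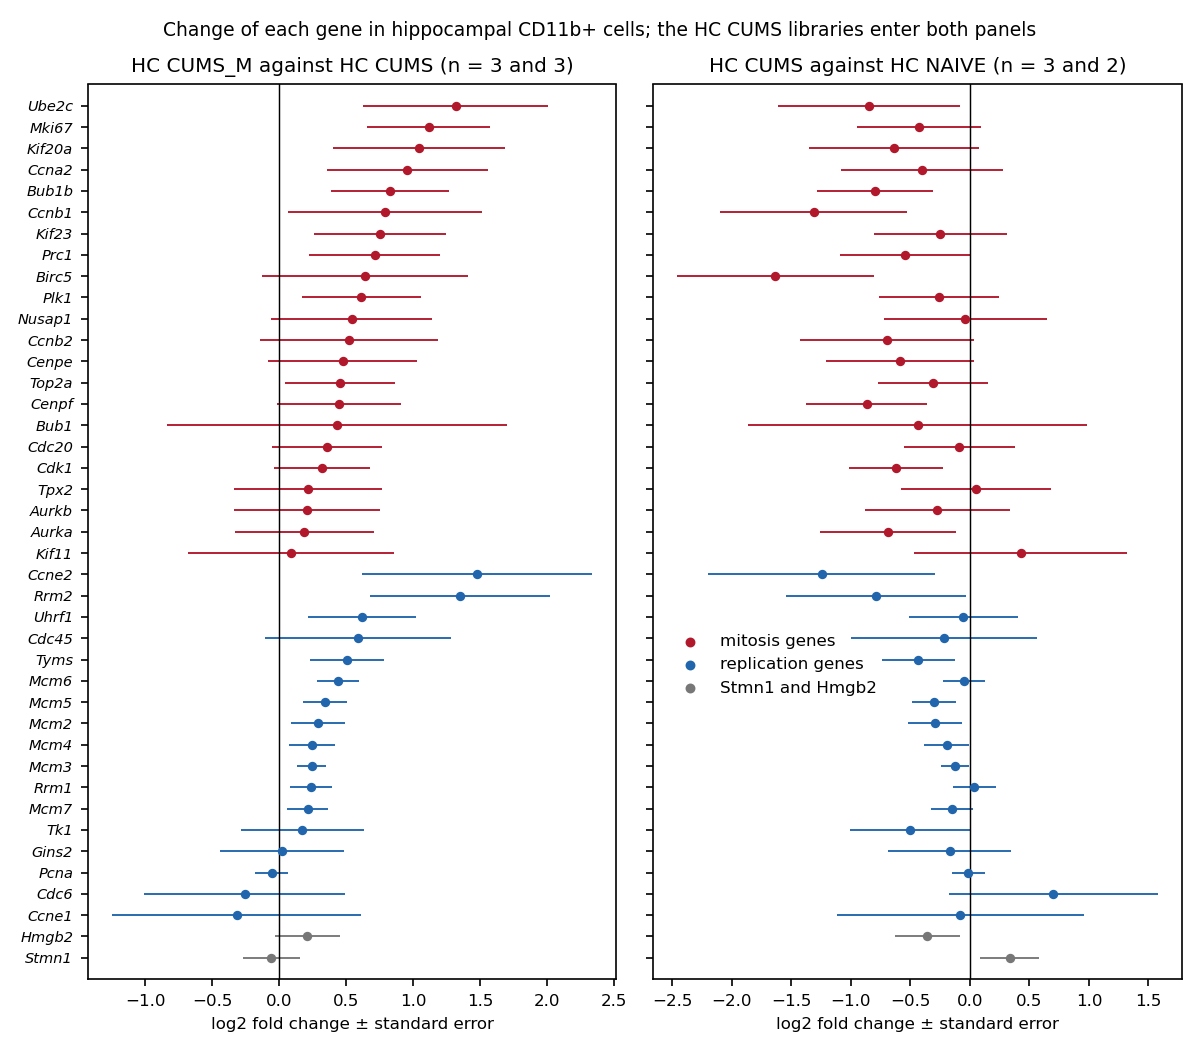
Log2 fold change with its standard error for each of the 41 genes between HC CUMS_M and HC CUMS (left) and between HC CUMS and HC NAIVE (right), sorted within class by the left panel. On the left 37 genes lie above 0 and on the right 36 lie below, and the HC CUMS libraries are part of both panels.

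HC CUMS_M and HC NAIVE, which share libraries with both comparisons above, differed less. The median of the 41 genes was 0.12, with 26 above 0 and 15 below, and no gene was called (0% of all genes; 2.34% at an unadjusted p under 0.05, where Mcm6 was the only one of the 41; DESeq2 called 0 of the 41). Mcm6 averaged 24.9 ± 2.96 CPM in HC CUMS_M (SD, n = 3) and 19.0 ± 1.19 CPM in HC NAIVE (SD, n = 2), a log2 fold change of 0.39 ± 0.18 (adjusted p = 1). The next genes by p were Rrm1, the large ribonucleotide reductase subunit, at 0.28 ± 0.18, and Mki67 at 0.69 ± 0.52. Groups did not overlap for 3 genes higher in CUMS_M (Mcm6, Rrm1 and Cdc45; 9.59% of all genes) and 2 lower (Birc5 and Cdk1; 8.16% of all genes), both below the share of all genes. The median was 0.0099 without HC CUMS_M 3 and 0.19 without HC CUMS_M 1. Neural progenitor and neuroblast genes were higher in CUMS_M without overlap (19.97 to 22.4 CPM in HC CUMS_M, 18.2 to 19.2 CPM in HC NAIVE), as were the neuron genes. Erythroid genes were lower without overlap (27.6 to 67.4 CPM in HC CUMS_M, 118.2 to 136.0 CPM in HC NAIVE). The part of these cells in the member values was not tested.

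In the prefrontal cortex the 22 mitosis genes summed to 84.7, 42.9 and 58.1 CPM in PFC CUMS_M, to 78.2 and 44.1 CPM in PFC CUMS, and to 64.8 and 89.7 CPM in PFC NAIVE. Libraries of 1 group thus differed by about as much as the whole set, and no group stood apart. The precursor sums of the same libraries were 1814, 731.6 and 171.4 CPM in PFC CUMS_M, 1057 and 655.2 CPM in PFC CUMS, and 1392 and 1898 CPM in PFC NAIVE. Mki67 had 15.7, 5.24 and 12.3 CPM in PFC CUMS_M, 18.1 and 5.47 CPM in PFC CUMS, and 8.36 and 16.0 CPM in PFC NAIVE. Top2a had 11.9, 3.45 and 8.54 CPM in PFC CUMS_M, 10.2 and 5.01 CPM in PFC CUMS, and 9.54 and 12.1 CPM in PFC NAIVE. Both genes overlapped across all 3 groups.

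Between PFC CUMS_M and PFC CUMS the median of the 41 genes was 0.036 (24 above 0, 17 below), against 0.016 over all genes. None of the 41 was called (0.0206% of all genes), none had an unadjusted p under 0.05 (5.54% of all genes), and DESeq2 called 0 of the 41. Groups did not overlap for 3, all higher in CUMS_M (Mcm6, Ccne2 and Ube2c; 8.99% of all genes). The smallest p belonged to Mcm2, with 17.02, 10.1 and 15.7 CPM in PFC CUMS_M, against 12.6 and 8.90 CPM in PFC CUMS (0.41 ± 0.24, adjusted p = 1). Next came Ccne1, the cyclin of S phase entry, at 1.868 ± 1.203, and Prc1, the spindle midzone bundler, at 0.91 ± 0.59. Without PFC CUMS_M 3, the library with choroid plexus genes, the median was 0.12, and leaving out other libraries moved it between -0.070 (without PFC CUMS_M 1) and 0.35 (without PFC CUMS 1). Mcm2 was at 0.18 without PFC CUMS 2 and 0.68 without PFC CUMS 1, and Ccne1 at 0.70 without PFC CUMS_M 1. The sums of astrocyte, oligodendrocyte, oligodendrocyte precursor, endothelial and mural, neuron, and neural progenitor genes were lower in PFC CUMS_M than in PFC CUMS without overlap, and their part was not tested.

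Between PFC CUMS and PFC NAIVE the median was -0.10 (13 above 0, 28 below), against 0.024 over all genes. None of the 41 was called, where 0.822% of all genes were (0.74% higher and 0.0822% lower in CUMS), and DESeq2 called 0 of the 41. At an unadjusted p under 0.05 there were 2, both lower in CUMS, against 13.7% of all genes. Groups did not overlap for 2 genes higher in CUMS and 9 lower, or 4.88% against 24.4% of all genes and 21.95% against 19.2% of all genes, so the lower share was close to the background. Tk1, the salvage kinase for thymidine, had 1.46 and 0.835 CPM in PFC CUMS, against 3.53 and 3.94 CPM in PFC NAIVE (-1.68 ± 0.61, adjusted p = 0.215). Cenpf had 2.85 and 1.39 CPM in PFC CUMS, against 4.96 and 5.30 CPM in PFC NAIVE (-1.26 ± 0.57, adjusted p = 0.334). Prc1 followed at -1.21 ± 0.63, which was -0.20 without PFC NAIVE 1 and -1.802 without PFC NAIVE 2. The median was -0.35 without PFC NAIVE 1 and 0.046 without PFC NAIVE 2. When PFC NAIVE 2 was left out, so that PFC NAIVE 1 stood alone for its group, Cdc45, Ube2c and Ccnb2 were called in this comparison with adjusted p between 0.0127 and 0.0241. All 3 genes had 0 counts in PFC NAIVE 1 and 3.45, 2.71 and 3.45 CPM in PFC NAIVE 2, so that call rested on the zeros of 1 library. The astrocyte sum was 680.9 to 733.7 CPM in PFC CUMS, against 216.4 to 250.5 CPM in PFC NAIVE, and the precursor sum 655.2 to 1057 CPM in PFC CUMS, against 1392 to 1898 CPM in PFC NAIVE, both without overlap; 4 of 14 marker lists were higher and 3 lower in this way, and their part in the member values was not tested.

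Between PFC CUMS_M and PFC NAIVE, which shares libraries with the last 2 comparisons, the median was -0.069 (18 above 0, 23 below), or -0.25 without PFC NAIVE 1 and 0.075 without PFC NAIVE 2. None of the 41 was called (0.0891% of all genes; 0.0754% higher and 0.0137% lower), DESeq2 called 0 of the 41, and 1 higher and 4 lower had an unadjusted p under 0.05 (13.9% of all genes). Mcm2 was the higher one, with 17.02, 10.1 and 15.7 CPM in PFC CUMS_M, against 8.36 and 9.49 CPM in PFC NAIVE (0.68 ± 0.25, adjusted p = 0.246). Aurkb, the kinase of the chromosomal passenger complex, had 2.42, 0.357 and 1.22 CPM in PFC CUMS_M, against 5.23 and 3.45 CPM in PFC NAIVE (-1.67 ± 0.62, adjusted p = 0.258). Cenpf averaged 2.14 ± 0.443 CPM in PFC CUMS_M (SD, n = 3) and 5.13 ± 0.236 CPM in PFC NAIVE (SD, n = 2), with an adjusted p of 0.302. Groups did not overlap for 2 genes higher in CUMS_M (13.9% of all genes) and 7 lower (11.2% of all genes). Leaving out PFC NAIVE 2 gave calls for Cdc45, Ube2c, Birc5 and Ccnb2 here too, all at 0 in PFC NAIVE 1.

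Whether a treatment acted differently in the 2 regions was tested as the difference of log2 fold changes, HC minus PFC. For CUMS_M over CUMS the median difference of the 41 genes was 0.22, with 33 above 0 and 8 below, and 0.49 for the mitosis genes; the list median was 0.13 without PFC CUMS 1 and 0.43 without PFC CUMS_M 1, and the mitosis median 0.088 without PFC CUMS 1 and 0.84 without PFC CUMS 2. None of the 41 was called (0.00685% of all genes; DESeq2 called 0 of the 41), and only Bub1b, the checkpoint protein BubR1, had an unadjusted p under 0.05, at 1.46 ± 0.67 (3.47% of all genes). Bub1b had 3.33, 2.99 and 7.18 CPM in HC CUMS_M, against 3.92, 1.89 and 1.81 CPM in HC CUMS, and 2.13, 1.79 and 3.22 CPM in PFC CUMS_M, against 5.002 and 2.41 CPM in PFC CUMS. The groups overlapped in both regions. Kif23, the kinesin of the midbody, and Mki67 came next at 1.43 ± 0.74 and 1.21 ± 0.69 (adjusted p = 0.999). Without PFC CUMS 1 the differences of Bub1b, Kif23 and Mki67 were 0.83, 0.87 and 0.088, and that of Mki67 was 1.804 without PFC CUMS 2. For CUMS over NAIVE the median difference was -0.073 (20 above 0, 21 below; -0.26 without PFC NAIVE 2 and 0.13 without PFC CUMS 1), none of the 41 was called (0% of all genes; DESeq2 called 0 of the 41), and 0 of the 41 had an unadjusted p under 0.05 (6.25% of all genes). The smallest p belonged to Birc5, at -2.66 ± 1.30 (adjusted p = 0.804), one of the genes at 0 in PFC NAIVE 1. Cdc6, which loads the helicase, and Mcm2 followed at 2.18 ± 1.28 and -0.56 ± 0.35.

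Enrichment was set against vehicle, both under stress. In the hippocampus the 22 mitosis genes summed to 62.7, 66.5 and 73.0 CPM in HC EE, against 49.0, 46.8 and 69.8 CPM in HC VEH, with HC VEH 3 inside the EE range. The median log2 fold change of the 41 genes was 0.20 (27 above 0, 14 below), against -0.037 over all genes, and it was 0.11 without HC EE 3. None of the 41 was called (0.0595% of all genes), DESeq2 called 0 of the 41, and Stmn1 was the only one with an unadjusted p under 0.05 (10.2% of all genes). Stmn1, whose product stathmin destabilises microtubules, had 15.7, 16.3 and 15.3 CPM in HC EE, against 12.8, 10.9 and 9.75 CPM in HC VEH (0.50 ± 0.20, unadjusted p = 0.0258, adjusted p = 0.393). Its groups did not overlap, with all 3 EE libraries above all 3 VEH libraries. Kif23 had 2.45, 2.82 and 3.15 CPM in HC EE, against 1.76, 1.82 and 1.82 CPM in HC VEH (0.64 ± 0.30, adjusted p = 0.491). Cdk1 had 5.08, 4.38 and 3.45 CPM in HC EE, against 2.86, 2.67 and 3.08 CPM in HC VEH (0.59 ± 0.30, adjusted p = 0.547). With Ccnb2 and Mcm7 these made 5 genes without overlap, all higher in EE, a share of 12.2% against 9.06% of all genes.

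Other markers differed between the same groups. The 6 erythroid genes summed to 345.9, 828.9 and 397.7 CPM in HC EE, against 62.8, 43.0 and 48.7 CPM in HC VEH, without overlap. The same held for astrocyte genes (616.5 to 804.1 CPM in HC EE, 423.4 to 538.4 CPM in HC VEH), oligodendrocyte genes (434.4 to 756.1 CPM in HC EE, 235.8 to 296.98 CPM in HC VEH), oligodendrocyte precursor genes (25.1 to 39.9 CPM in HC EE, 7.11 to 13.4 CPM in HC VEH) and border macrophage genes (458.0 to 643.6 CPM in HC EE, 269.6 to 365.98 CPM in HC VEH). With the choroid plexus, lymphocyte and monocyte genes, 8 of 14 marker lists were higher in HC EE without overlap, and their part in the member values was not tested. HC VEH 1 and HC VEH 2, which lacked the choroid plexus genes, were the 2 lowest for mitosis genes. Without the 6 enrichment libraries whose choroid plexus sums went against their label, a choice made after the data were seen that leaves HC VEH 3 alone and assumes it varies like the HC EE libraries, the median of the 41 genes was 0.19 and that of the mitosis genes 0.013. Stmn1 was then at 0.70 with an adjusted p of 0.0887.

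In the prefrontal cortex the mitosis genes summed to 92.2, 72.7 and 38.5 CPM in PFC EE, against 53.6, 65.3 and 65.5 CPM in PFC VEH. The EE libraries spread to both sides of the VEH libraries, and their precursor sums, 1316, 376.7 and 117.1 CPM, ran in the same order. The median of the 41 genes was 0.018 (23 above 0, 18 below; -0.088 without PFC EE 1 and 0.14 without PFC EE 3), none was called (0% of all genes; DESeq2 called 0 of the 41), and 0 had an unadjusted p under 0.05 (4.06% of all genes). Kif11, the motor that separates spindle poles, had 4.99, 3.45 and 1.63 CPM in PFC EE, against 1.19, 2.20 and 2.15 CPM in PFC VEH (0.86 ± 0.42, adjusted p = 0.998). Hmgb2, a DNA-bending chromatin protein, had 55.1, 31.0 and 41.1 CPM in PFC EE, against 38.6, 32.5 and 24.6 CPM in PFC VEH (0.41 ± 0.23). Nusap1, a spindle microtubule protein, was at 0.90 ± 0.51. Without PFC EE 1 these were 0.47 (Kif11), 0.18 (Hmgb2) and 0.56 (Nusap1). The erythroid sum was 202.5 to 983.9 CPM in PFC EE, against 31.3 to 58.6 CPM in PFC VEH, and its part was not tested. Only Ccnb2 had no overlap, lower in EE (4.44% of all genes). Mki67 had 23.9, 14.4 and 5.99 CPM in PFC EE, against 5.40, 15.4 and 14.2 CPM in PFC VEH. With the 6 libraries left out, PFC EE 1 was set against PFC VEH 1 alone, and Mki67 was called at a log2 fold change of 2.14 ± 0.30 (adjusted p = 0.00353), a value of 1 library per group that assumes both vary like the HC EE libraries.

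The difference between the regions in the enrichment response had a median of 0.19 over the 41 genes (26 above 0, 15 below; 0.0011 without PFC EE 3), with none called (0% of all genes; DESeq2 called 0 of the 41) and 0 at an unadjusted p under 0.05 (4.17% of all genes). Ccne2, Stmn1 and Ccnb2 had the smallest p, at -1.65 ± 0.86, 0.48 ± 0.28 and 0.84 ± 0.51. Without the 6 libraries the median was -0.14 and Mki67 was called at -2.41 ± 0.38 (adjusted p = 0.00532), again through the single PFC libraries.

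Across the regions themselves, 1 of the 41 genes passed the test. Mcm2, a helicase subunit, was higher in HC than in PFC in the minocycline experiment, where 3.53% of all genes were called higher in HC and 1.73% lower, 5.26% in all. It had 18.1, 18.9 and 13.9 CPM in HC CUMS_M, 13.9, 14.2 and 13.6 CPM in HC CUMS, and 14.8 and 19.2 CPM in HC NAIVE. The PFC libraries had 17.02, 10.1 and 15.7 CPM in CUMS_M, 12.6 and 8.90 CPM in CUMS, and 8.36 and 9.49 CPM in NAIVE. All 8 HC libraries thus lay above 5 of the 7 PFC libraries, and the PFC CUMS_M libraries 1 and 3 lay inside the HC range; 0.767% of all genes were higher in HC and 0.493% lower without any overlap. The means were 15.8 ± 2.47 CPM in HC (SD, n = 8) and 11.7 ± 3.45 CPM in PFC (SD, n = 7), with a log2 fold change averaged over treatments of 0.51 ± 0.14 (unadjusted p = 0.00133, adjusted p = 0.0346). The call was lost when any 1 of 9 libraries was left out, with adjusted p up to 0.121 and the log2 fold change between 0.44 and 0.61. It was also lost with each combination of treatment and replicate number as a block (adjusted p = 0.0739). It was kept without PFC CUMS_M 3 (0.54, adjusted p = 0.0283).

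**Figure D5:**
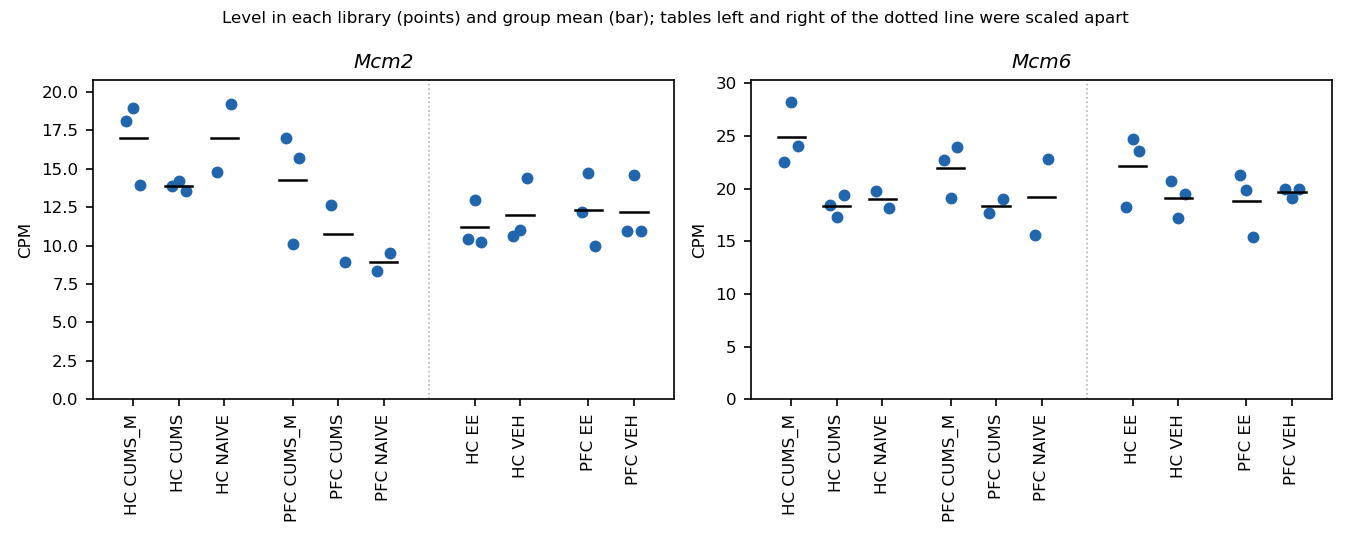
CPM of Mcm2 (left) and Mcm6 (right) in each library (points) with the group mean (bar); the minocycline and enrichment tables, left and right of the dotted line, were scaled separately. For Mcm2 all 8 HC libraries of the minocycline experiment lie at 13.6 CPM or above, and 5 of the 7 PFC libraries lie below that, whereas the regions overlap in the enrichment experiment.

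The neighbours of Mcm2 by p were Mcm5 and Hmgb2. Mcm5 averaged 17.02 ± 1.99 CPM in HC and 13.6 ± 2.03 CPM in PFC (SD, n = 8 and 7), at 0.32 ± 0.11 (adjusted p = 0.0914). Hmgb2 averaged 27.2 ± 5.38 CPM in HC and 37.3 ± 8.503 CPM in PFC, at -0.44 ± 0.16 (adjusted p = 0.131), and it was called without the filter on low counts (adjusted p = 0.00044), by DESeq2 (adjusted p = 0.0449) and without PFC NAIVE 1 (adjusted p = 0.0310). The 2 helicase genes and Hmgb2 therefore pointed in opposite directions, and the median of the 41 genes was 0.025 (21 above 0, 20 below). The precursor genes summed to 55.7 to 1079 CPM in the HC libraries of this experiment and to 171.4 to 1898 CPM in its PFC libraries. With them as a covariate none of the 41 was called, and the smallest adjusted p was 0.305.

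The enrichment experiment did not show the same difference for Mcm2, with 10.4, 12.99 and 10.3 CPM in HC EE, 10.6, 11.02 and 14.4 CPM in HC VEH, 12.2, 14.7 and 9.996 CPM in PFC EE, and 10.9, 14.6 and 10.97 CPM in PFC VEH. The regions overlapped throughout in this experiment, where 6 of its 12 libraries went against the pattern of their region label. Between the regions in this experiment the median of the 41 genes was -0.081 (16 above 0, 25 below), none was called (0% of all genes; DESeq2 called 0 of the 41), and 0 had an unadjusted p under 0.05 (2.36% of all genes). Ube2c, the ubiquitin-conjugating enzyme of the anaphase-promoting complex, was at -0.85 ± 0.40, Prc1 at -0.41 ± 0.30 and Cdc45 at -0.35 ± 0.28 (adjusted p = 1). Without the 6 libraries that went against their region label, Pcna was called at -0.43 ± 0.13 (adjusted p = 0.0313) and Hmgb2 at -0.50 ± 0.15 (adjusted p = 0.0382), both lower in HC, in a fit that called 1897 of 15906 genes. Pcna had 49.4, 62.4 and 55.9 CPM in HC EE and 43.8 CPM in HC VEH 3, against 62.9 CPM in PFC EE 1 and 72.4 CPM in PFC VEH 1, so both PFC libraries lay above the 4 HC libraries. Hmgb2 in HC had 29.8, 36.3 and 43.8 CPM in EE and 28.4 CPM in VEH 3, against 55.1 CPM in PFC EE 1 and 38.6 CPM in PFC VEH 1, with overlap.

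The remaining required markers of the list gave no separation in the enrichment experiment. Top2a had 7.35, 8.85 and 8.92 CPM in HC EE, against 4.91, 4.09 and 9.19 CPM in HC VEH, and 9.02, 8.32 and 3.61 CPM in PFC EE, against 5.40, 5.78 and 6.70 CPM in PFC VEH. Mki67 in HC had 12.8, 12.2 and 15.3 CPM in EE, against 7.14, 7.69 and 16.2 CPM in VEH. HC VEH 3 was the highest HC library for both genes. Mcm6 had 18.2, 24.7 and 23.6 CPM in HC EE, against 20.7, 17.2 and 19.5 CPM in HC VEH. Mcm5 had 10.8, 14.96 and 10.6 CPM in HC EE, against 11.2, 11.3 and 10.1 CPM in HC VEH. Ccna2 had 1.91, 2.82 and 2.22 CPM in HC EE, against 1.57, 1.91 and 2.22 CPM in HC VEH. In each of these 3 genes the EE and VEH libraries overlapped. Ccnb1 had 0.953, 0.518 and 1.38 CPM in HC EE, against 1.10, 0.755 and 0.758 CPM in HC VEH. Rrm2 had 0.772, 2.21 and 1.08 CPM in HC EE, against 1.048, 0.666 and 0.859 CPM in HC VEH. These last levels are near 1 CPM, where the groups also overlapped.

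Other genes of the same pathways, from lists that did not include the 41, were read from the same test. Of 38 further mitosis genes tested in the minocycline experiment, 27 were above 0 between HC CUMS_M and HC CUMS (median log2 fold change 0.25) and 7 had no overlap, all higher in CUMS_M, against 6.04% of all genes. Of 38 further replication genes 26 were above 0 (median 0.14), with Dnmt1, the maintenance DNA methyltransferase, at 0.26 ± 0.10 and Lig1, the replicative ligase, at 0.35 ± 0.18 having the smallest p. None of either list was called. Between HC CUMS and HC NAIVE the further mitosis genes were split evenly, 19 above 0 and 19 below (median -0.017), and the further replication genes were 13 above and 25 below (median -0.089). The further mitosis genes thus did not share the median of -0.49 of the 22 in that comparison. Across the regions, 3 of 38 further mitosis genes were called in the minocycline experiment, where 5.26% of all genes were: Espl1, separase, was higher in HC (0.30 ± 0.083, adjusted p = 0.0411), while Smc4, a condensin subunit (-0.64 ± 0.17, adjusted p = 0.0347), and Dlgap5, a spindle protein (-1.86 ± 0.53, adjusted p = 0.0455), were lower in HC. Of the 38 further replication genes 0 were called there by edgeR's quasi-likelihood test, and 0 had an unadjusted p under 0.05, against 19.1% of all genes.

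Of 32 cell cycle regulators 2 were called between HC and PFC of the minocycline experiment, a share near the 5.26% of all genes. Ccnd1, cyclin D1, averaged 170.7 ± 16.3 CPM in HC and 131.8 ± 24.2 CPM in PFC (SD, n = 8 and 7; 0.38 ± 0.10, adjusted p = 0.0446), and Gadd45a, a stress-induced growth arrest gene, averaged 1.98 ± 0.586 CPM in HC and 5.67 ± 3.43 CPM in PFC (-1.49 ± 0.33, adjusted p = 0.0126). Between HC CUMS_M and HC CUMS the regulators of smallest p were Gadd45b and Btg2, a growth arrest gene and an antiproliferative gene that respond early to stimulation. Gadd45b averaged 2.33 CPM in HC CUMS_M and 7.69 CPM in HC CUMS (-1.72 ± 0.44, adjusted p = 0.588), and Btg2 averaged 407.8 CPM in HC CUMS_M and 757.8 CPM in HC CUMS (-0.89 ± 0.25, adjusted p = 0.787). Between HC EE and HC VEH, Ccnd2, cyclin D2, averaged 12.5 CPM in EE and 6.52 CPM in VEH (0.93 ± 0.27, adjusted p = 0.174). Csf1r averaged 16591 CPM in HC CUMS_M and 14186 CPM in HC CUMS (0.23 ± 0.077, adjusted p = 0.954). None of the 7 growth factor and receptor genes on that list was called in any of the 13 comparisons by edgeR, and at an unadjusted p under 0.05 at most 2 of the 7 were. Over all genes that share ran from 2.34% (HC CUMS_M against HC NAIVE) to 19.1% (HC against PFC, minocycline experiment). A count of 2 of 7 lies above these shares, on a list of few genes.

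Some levels carry a counting limit. The libraries were made strand-specific, but the strand setting of the counting is not given in the sources used here. Whether reads of a gene and of a transcript on the opposite strand were told apart is therefore not known. Exon bases overlapped by an opposite-strand exon made up 67.3% of Gins2, 29.3% of Kif20a, 22.8% of Ube2c, 17.4% of Ccne2, 12.5% of Ccna2 and 11.1% of Prc1, and less than that in the others.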

How the data were processed

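RNA from CD11b+ cells sorted from 2 brain regions was sequenced in 27 libraries. The deposited values are whole-number counts of reads per Ensembl gene, 1 table per experiment, and the 2 tables were analysed apart. Per the submitters' processing notes the authors used Trimmomatic 0.36, STAR 2.6.1b, Picard 2.17.1, featureCounts 1.5.3 and DESeq2 1.24.0 with mm10. The annotation release, strand setting and treatment of duplicates are not given in the sources used here. Symbols came from GENCODE M21, which matched 53412 of 53412 and 55240 of 55421 rows.

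Genes with at least 10 counts in at least 2 libraries were tested with edgeR 4.0.16 (R 4.3.3, limma 3.58.1; quasi-likelihood F-test, robust, trimmed-mean scaling, 1 mean per group over all libraries of an experiment), with Benjamini-Hochberg adjustment over all genes and a threshold of 0.05. The steps were tested on simulated counts. A log2 fold change is the fitted value of the first group over the second. No columns were left unmatched to a sample. Figures were drawn with matplotlib 3.10.9 in Python 3.11.15, and tables were handled with pandas 2.3.3.

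The 41 genes, the further gene lists and the marker lists were chosen with earlier results of these data known. Genes described in full are those called in any comparison, the 3 of smallest p in each, and Mki67, Top2a, Cdk1, Ccnb1, Ccna2, Mcm2, Mcm5, Mcm6, Rrm2, Pcna, Stmn1 and Hmgb2; of the further lists, those called or else those of smallest p.

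Alternatives were DESeq2 1.42.0 (size factors, Wald test), another filter and none, only the groups compared, each library left out, the replicate number as a block, and 2 settings added after seeing the data, a neutrophil precursor covariate and the libraries with discordant choroid plexus genes left out. For HC against PFC the block was each combination of treatment and replicate number. The labels number replicates without saying what a number shares. Libraries of the same number deviated together in PFC EE and PFC VEH (correlations of 0.36, 0.18 and 0.21) and met the limit set for pairing; other groups did not. Values given come from the fit without the block, and the block changed no treatment call of the 41 genes. Replicates of a group differed beyond sampling noise, with a chi-square per degree of freedom between 6.7 and 135.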

Additional observations from a re-analysis of the deposited data

Results flagged for a closer look

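Ccnb2, a mitotic cyclin, was 1 of the 41 genes (2.44%) in which every EE library of 1 region lay on one side of its vehicle libraries and every EE library of the other region lay on the opposite side, against 32 of all 16804 genes tested (0.19%). A single gene does not set the list apart from that share. It had 1.498, 1.79 and 1.97 CPM in HC EE, against 0.953, 1.29 and 1.41 CPM in HC VEH (log2 fold change 0.52). It had 1.86, 1.80 and 1.14 CPM in PFC EE, against 1.88, 1.91 and 2.19 CPM in PFC VEH (log2 fold change -0.32). The difference of the 2 changes, 0.84 ± 0.51, did not pass the test (adjusted p = 0.9997). The nearest PFC EE and PFC VEH libraries, 1.86 and 1.88 CPM, were close to each other. Without the 6 enrichment libraries whose choroid plexus genes went against their region label, the difference was 0.33. Groups held at most 3 libraries, so single libraries far from their group were not tested.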

How the results depend on the processing

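Of the 41 genes, the number called between HC and PFC in the minocycline experiment was 1, and it was 2 without the filter on low counts, 2 with DESeq2's Wald test, 0 with treatment and replicate number together as a block (smallest adjusted p = 0.0739), 0 with the neutrophil precursor covariate, and 0 to 3 when 1 library was left out. A block changed no other call of the 41 genes. Leaving out 1 library gave 0 to 3 calls, against 0, for PFC CUMS and NAIVE, 0 to 4 for PFC CUMS_M and NAIVE, and 0 to 3 for the region difference of CUMS and NAIVE; the calls above 0 came without PFC NAIVE 2. The median log2 fold change of the list moved between -0.35 and 0.046 for PFC CUMS and NAIVE and between -0.26 and 0.13 for their region difference. It was -0.13 (HC CUMS and NAIVE) and 0.20 (HC CUMS_M and CUMS) with the covariate. With the 6 enrichment libraries left out, the median was 0.29 with 1 call for PFC EE and VEH and -0.14 with 1 call for the region difference, and 2 genes were called between HC and PFC. Mcm2 between HC and PFC of the minocycline experiment, the only call with all libraries, edgeR and the stated filter, changed sign in no setting run. Calls that appeared only in other settings are not covered by that statement. Several medians near 0 changed sign, in comparisons within each region, between the regions and of the region differences. An example was the mitosis median of HC CUMS_M and NAIVE (-0.18 to 0.30 when 1 library was left out). Over all genes, calls moved from 120 to 348 with DESeq2 for PFC CUMS and NAIVE, from 768 to 1201 for HC and PFC in the minocycline experiment, and from 10 to 431 for HC EE and VEH, and from 10 to 864 for the last with the 6 libraries left out; the cause was not tested. A fit of only the groups compared has no separate value for HC and PFC, since all groups enter it. Mitosis genes near 1 CPM rest on few reads per library, which limits their precision.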
